A study of Mus musculus with 3 samples.

Results

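CD4 single-positive T cells of the mouse aorta were examined in a pooled CITE-seq run, which reads the transcripts and the surface antibody tags of the same cell. The cells made up 184 of the 5894 cells that could be assigned to a mouse and passed the limits on quality, out of 8471 barcodes in the table. They were chosen on measured values: the leading hashtag at 3 times the next or more, at most 10% mitochondrial UMIs (unique molecules counted), 1000 UMIs or more, 3 or more UMIs of Cd3d, Cd3e and Cd3g together, a CD4 antibody count of 10 or more and at least 5 times that of CD8a, no UMI of Rag1, Dntt, Trdc or Cd79a, and fewer than 10 UMIs of C1qa, C1qb and C1qc per 10000. Values of these genes and antibodies describe the choice and are no finding. The aortas came from 5 Jak2WT mice (mice 1 to 5 by hashtag number) and 5 Jak2V617F Myel mice (Jak2V617F MyC in the labels), in which the Jak2 V617F change is switched on by Cre under the lysozyme M promoter, which is active mainly in myeloid cells. At sacrifice 2 of these mice had an aneurysm (mice 7 and 9) and 3 had dilation without one (mice 6, 8 and 10). The mice were of both sexes on a C57BL/6 background and untreated, and their ages were not given in the sources used here. All 10 had received an antibody to CD45.2 into the blood before sacrifice, so that labelled circulating leukocytes could be left out of the sort. Summed over the CD4 T cells, a mouse gave 19819 (mouse 6) to 256266 UMIs (mouse 3). Whether the allele was also switched on in some T cells was not tested.

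CD4 T cells recognise peptides on MHC class II and act through helper signals such as CD40 ligand and cytokines. Naive CD4 T cells carry CCR7, which takes them into lymph nodes, and S1PR1, which takes them out again, under the control of the transcription factor KLF2. Cells that have met antigen lose this set, gain the adhesion receptor CD44, and may settle in tissues as type 1, type 2, type 17 or regulatory cells, which are known by IFN-gamma, IL-4, IL-5 and IL-13, IL-17A, and Foxp3 respectively.

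The cells carried the markers of their name. A Cd4 UMI was found in 122 of 184 cells (66.3%, exact 95% interval 59.0 to 73.1), in 0 of 179 CD8 single-positive T cells chosen in the mirrored way (which allows a share of cells with a UMI of up to 1.68%) and in 0.909% of 660 B cells. Trac, the constant part of the T cell receptor alpha chain, was found in 90.8% of the CD4 T cells and 1.36% of B cells, and Lef1, a transcription factor of naive T cells, in 76.1% and 2.27%. A Cd8a UMI was found in 0 of 184 cells, which allows a share of cells with a UMI of up to 1.63%. Rag2, which cuts the receptor genes in thymocytes, and Ncr1, a receptor of natural killer cells, were also at 0. Median depth was 6960 UMIs a cell in CD4 T cells (2916 to 28544), 9477 in CD8 T cells and 6387.5 in B cells. Intervals and the limits for a count of 0 cover counting error only, and a count of 0 does not limit the share of cells that express a gene. Lyz2, a gene of macrophages that the rule did not use, had UMIs in 63.6% of CD4 T cells, 66.5% of CD8 T cells and 70.0% of B cells. Its share in CD4 T cells was thus not above that in the other lymphocytes, and whether these UMIs were background was not tested.

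Some cells failed by a single condition, most of them by the CD4 antibody count. The CD4 antibody count kept out 119 cells, the nearest at 8 counts against 10 for the nearest member, and the C1q limit kept out 22, the nearest at 10.4 per 10000 UMIs against 9.27 inside. The Cd3 minimum kept out 11 cells at 2 UMIs or fewer, while 7 members had 3, and the hashtag ratio kept out 7, the nearest at 2.41 against 3.36 inside. The ratio of CD4 to CD8a kept out 7 (1.60 against 6.67 inside), Trdc 7, Cd79a 5, and Rag1 with Dntt 3. No cell failed by depth or by mitochondrial share alone, and the members nearest to those limits had 2916 UMIs and 6.85%.

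In 5 of the 184 cells the RNA also held many UMIs of MHC class II or haemoglobin genes, which are typical of other cell types. They are called mixed cells here, and whether they were doublets or single cells was not tested. In 4 of them, from mice 3, 5, 7 and 9, the MHC class II genes H2-Aa, H2-Ab1, H2-Eb1 and Cd74 together reached 276, 676, 296 and 432 per 10000 UMIs at depths of 20375 to 28544 UMIs, against at most 26.3 in the other cells. In the fifth cell, from mouse 3, haemoglobin took 48.7% of 15692 UMIs, against at most 7 UMIs elsewhere. These cells meet the rule and were kept. The main counts were also made without them, an alternative chosen after seeing the data. Without these 5 cells the summed level of a 15-gene macrophage list fell from a highest 4634 CPM (counts per 1000000 UMIs of the summed cells) in any mouse to 1766, and that of a 10-gene dendritic cell list from 4737 to 605 CPM. The most abundant gene was Cd74 in the first list and H2-Aa in the second. All 15 macrophage genes had at least 1 UMI in the CD4 T cells, and of the 10 dendritic cell genes Zbtb46, Clec9a and Fscn1 were at 0.

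CD4 T cells took a smaller share of the sorted cells in Jak2V617F Myel aortas than in Jak2WT aortas. Mice 1 to 5 held 10, 19, 33, 4 and 27 of them, or 3.15%, 4.71%, 5.74%, 2.74% and 4.13% of the mouse's cells. Among mutant mice, those with dilation held 3, 13 and 32 (0.708%, 3.12% and 3.59%) and those with an aneurysm 24 and 19 (2.38% and 1.80%). The 2 groups overlapped, since Jak2WT mouse 4 lay below 2 mutant mice and mouse 1 below mouse 10. The mean share was 4.10% ± 1.21 in Jak2WT and 2.32% ± 1.13 in mutant mice (SD, n = 5 each). Mutant minus Jak2WT was -1.78 points (p = 0.0476 by an exact two-sided permutation test, whose smallest possible p is 0.00794). Leaving out mouse 2, 3, 5, 6 or 9 raised p to 0.0952, mouse 7 to 0.0794 and mouse 8 to 0.0556, with differences between -2.12 and -1.37 points over all such fits. Without the 5 mixed cells the difference was -1.72 points (exact p = 0.0397).

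The other lymphocytes gave context for that share. CD8 T cells made up 4.93% ± 2.41 of cells in Jak2WT and 2.11% ± 0.59 in mutant mice, and B cells 16.6% ± 5.57 and 8.31% ± 5.00 (SD, n = 5 each). The number of CD4 T cells per CD8 T cell was 1.05 ± 0.71 and 1.08 ± 0.48. As shares of the 953 cells with at least 3 Cd3 UMIs, CD4 T cells made up 26.3% ± 8.56 in Jak2WT and 16.0% ± 7.97 in mutant mice, a difference of -10.3 points (exact permutation p = 0.0873). Cells with Rag1 or Dntt and both the CD4 and CD8a antibodies, which look like thymocytes, ranged from 0.198% in mouse 7 to 12.7% in mouse 3, so the amount of such cells differed among mice too. Shares sum to the whole and the sort set each genotype to a fixed part of the pool, so fewer T cells and more of other cells cannot be told apart.

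**Figure D1:**
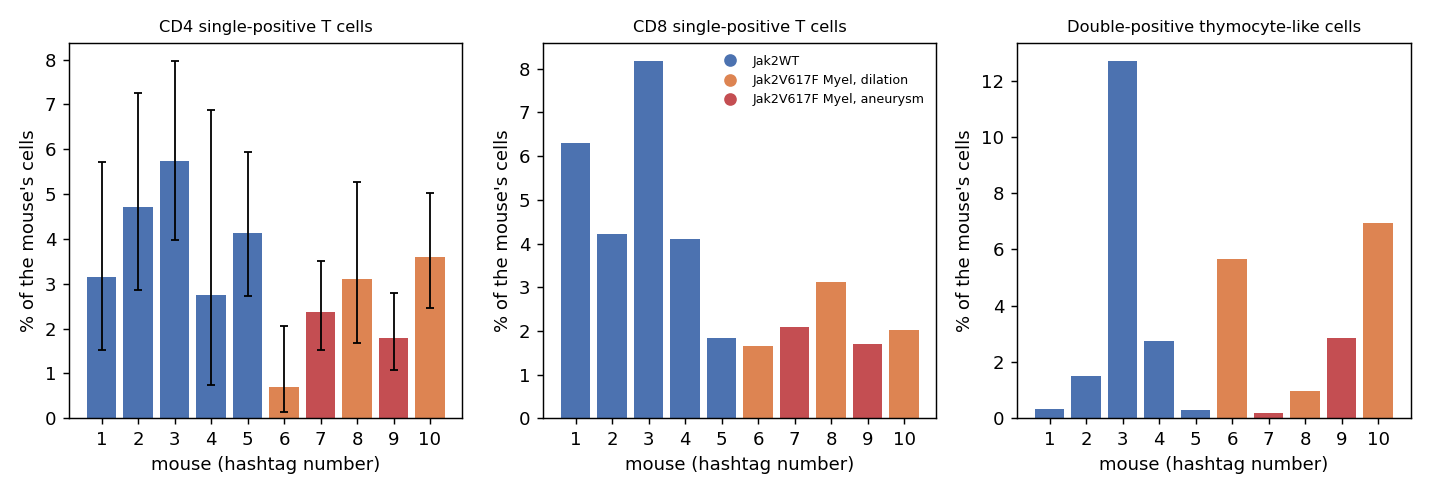
Shares of CD4 T cells, CD8 T cells and thymocyte-like cells among the assigned cells of each mouse (percent, 1 bar per mouse colored by group); lines on the CD4 bars are exact 95% intervals. CD4 T cells ran from 0.708% in mouse 6 to 5.74% in mouse 3, and the 2 genotypes overlapped.

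The surface antibodies CD44 and CD62L divided the CD4 T cells into separate sets. On the scale of log2 of the CD44 count plus 1 over the CD62L count plus 1, the counts of cells in steps of 1 unit had a peak of 34 from -2 to -1 and another of 24 from 5 to 6, and the step from 2 to 3 between them held 4. Of all 184, 67 were over 2, a value that lies in the gap and was chosen after seeing the data. These CD44-high, CD62L-low cells made up 3.03% of the cells of mouse 3, 36.8%, 25.0% and 51.9% of those of mice 2, 4 and 5, and 2 of the 10 cells of mouse 1. They were 33.3%, 23.1% and 31.3% in the dilation mice 6, 8 and 10, and 70.8% and 57.9% in the aneurysm mice 7 and 9. Both aneurysm mice lay above the other 8, and this comparison was made after the values were seen and was not tested. The mean log2 ratio of each mouse was 0.29 ± 1.56 in 4 Jak2WT and 1.52 ± 1.62 in 4 mutant mice with at least 10 CD4 T cells (SD), a difference of 1.23 (two-sided exact permutation test, p = 0.314, smallest possible p 0.0286). The difference was 0.66 without mouse 7, 0.67 without mouse 3, 0.71 with a stricter antibody gate and 0.76 with a pseudocount of 5, and without mouse 5 it was 1.82. The genotypes therefore overlapped widely, and the spread within each was larger than the difference between them.

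**Figure D2:**
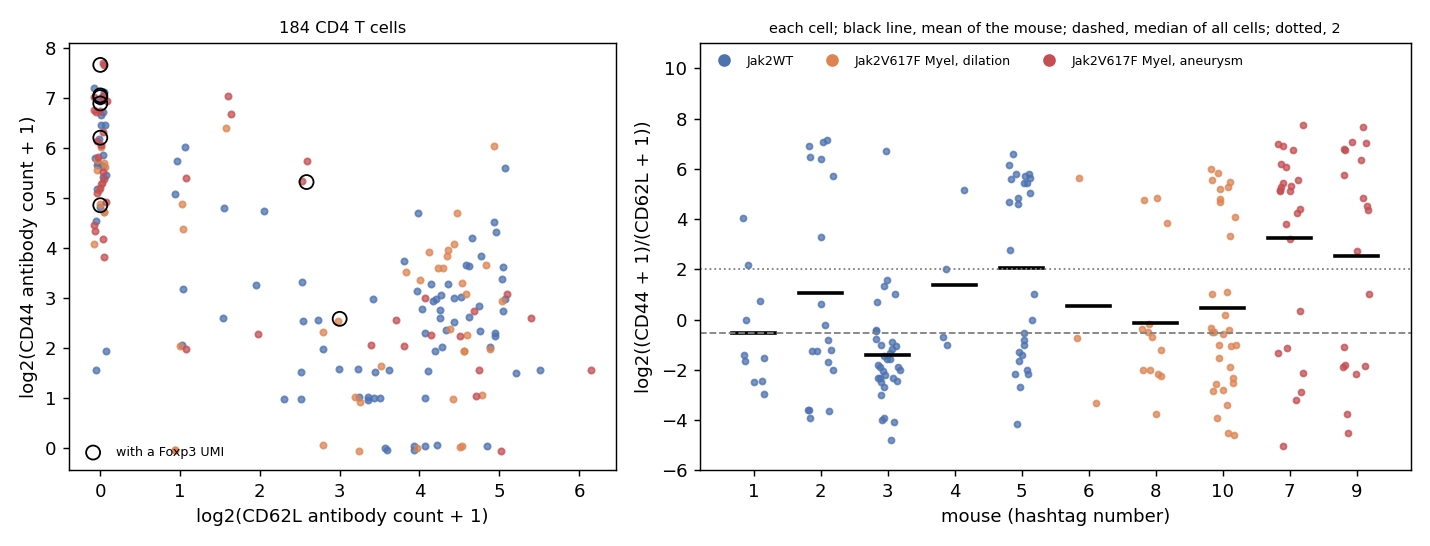
Antibody counts of CD44 against CD62L (log2 of count plus 1) for the 184 CD4 T cells, with a ring on cells with a Foxp3 UMI, and the log2 ratio of each cell by mouse with the mean of the mouse as a black line, colored by group. Cells fall into a CD62L-high set and a CD44-high set with few between, and mice 7 and 9 have the highest shares of their cells in the CD44-high set (70.8% and 57.9%).

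To ask what else differed along this axis, the cells were split at the median ratio of -0.53 into 92 CD44-side cells and 92 CD62L-side cells, and UMIs were summed for each mouse and side in the 7 mice with at least 5 cells on both (mice 2, 3, 5, 7, 8, 9 and 10). The sides are ranges and not cell types: 14 cells on the CD44 side and 31 on the CD62L side lay within 1 log2 unit of the cut. Median depth was alike at 6721.5 and 7125.5 UMIs. In a median cell the macrophage list held 10.4 and 10.5 per 10000 UMIs, the B cell list 1.07 and 1.36, and the dendritic cell list 1.46 on each side, and 4 of the 5 mixed cells lay on the CD44 side. In the sums that were tested the sides were not alike in these genes. Cd74 was at 5418, 5817, 2923 and 4743 CPM on the CD44 side of mice 3, 5, 7 and 9, which held those 4 cells, at 57.6 to 110 CPM in the other 3 mice, and at 74.6 to 143 CPM on the CD62L side. Lyz2 was called higher on the CD44 side (log2 change 1.42 ± 0.46, adjusted p = 0.0243), in 4 of 7 mice, with 1726, 409 and 1119 CPM in mice 3, 5 and 7, 115 to 166 CPM in the other 4, and 80.2 to 161 CPM on the CD62L side. Of 861 genes tested, 254 differed (29.5%; edgeR quasi-likelihood test with the mouse as a block, adjusted p under 0.05), 144 higher on the CD44 side (16.7%) and 110 lower (12.8%). DESeq2 called 82 higher and 105 lower, and without the mixed cells edgeR called 115 and 98.

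Among the 861 genes that passed the filter on low counts and were tested, the largest rises on the CD44 side were in S100a4 and S100a6, which encode small calcium-binding proteins and are neighbours on chromosome 3. Ccl5, which was not among the tested genes and is named after its values were seen, was at 0 to 12.2 CPM (median 0) on the CD62L side and at 0 to 1743 CPM (median 856) on the CD44 side. S100a4 lay between 0 and 53.5 CPM (median 14.9) in the CD62L-side cells of the 7 mice and between 388 and 2890.5 (median 982) in their CD44-side cells. The ranges did not touch in any mouse, and the change was 6.03 ± 0.26 on the log2 scale (SE; adjusted p = 6.97e-12). In mice 3 and 9 a mixed cell on the CD44 side carried part of the S100a4 UMIs, and values without the mixed cells are given below. S100a6 rose from 4.96 to 71.3 CPM (median 25.4) to 761 to 2539.5 CPM (median 1384), a log2 change of 5.56 ± 0.29 (adjusted p = 7.52e-11). Both genes lie on the plus strand of GRCm38, S100a4 at chr3:90603771-90606045 and S100a6 at chr3:90612882-90624181, with 6836 bases between them. The 250 bases before the RefSeq start of each gene (GRCm38.p6, plus strand, chr3:90603520-90603769 and chr3:90612644-90612893) are shown because the genes moved together. Capitals mark the letters TATAAA, searched on both strands and overlapping no other motif searched:
S100a4: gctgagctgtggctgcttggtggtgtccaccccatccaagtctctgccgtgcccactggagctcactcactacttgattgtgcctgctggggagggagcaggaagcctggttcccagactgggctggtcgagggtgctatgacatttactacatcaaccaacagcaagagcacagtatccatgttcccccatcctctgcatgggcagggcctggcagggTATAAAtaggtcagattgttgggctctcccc
S100a6: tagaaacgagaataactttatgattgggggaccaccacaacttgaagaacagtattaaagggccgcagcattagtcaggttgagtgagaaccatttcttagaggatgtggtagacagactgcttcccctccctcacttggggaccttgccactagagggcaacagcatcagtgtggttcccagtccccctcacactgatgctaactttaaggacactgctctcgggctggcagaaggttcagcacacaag
The match in S100a4 begins at position -31 from the start, the S100a6 window holds none, and 12.4% of 32851 such windows in the RefSeq table hold the letters. A match describes the letters in the window only.

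Ahnak, Itgb1 and Rora rose with them. Ahnak, a large scaffold protein, lay between 0 and 89.2 CPM on the CD62L side and between 347 and 871 on the CD44 side (log2 change 4.13 ± 0.32, adjusted p = 3.84e-08). Itgb1, the beta 1 integrin chain that binds collagen and fibronectin partners, lay between 0 and 60.9 and between 143 and 533 CPM (3.46 ± 0.34, adjusted p = 7.75e-07). Neither gene's ranges overlapped. Rora, a nuclear receptor active in type 17 and innate-like lymphocytes, rose by 3.96 ± 0.47 on the log2 scale, from a median of 12.2 to 312 CPM (adjusted p = 1.07e-05). S100a11, Lgals1 (galectin-1), S100a10, Vim (vimentin), Rgs1 (a regulator of chemokine receptor signaling), Nfkbiz (a nuclear partner of NF-kappaB) and Dennd4a also rose in 7 of 7 mice, by log2 changes of 2.40 to 3.22. Of the effector and memory list, 17 genes could be tested and 15 were called higher, against 16.7% of all 861 genes. The median log2 change of the 17 was 2.46, against 0.07 over all genes. The split used CD44 and CD62L, which tell antigen-experienced from naive cells, so a rise in this list was to be foreseen. Members low on the CD62L side, such as S100a4, could also pass the filter through the CD44 side. The counts of this list therefore describe the split and are no separate support for it.

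Ccr7, S1pr1, Klf2 and Lef1 fell on the CD44 side. Ccr7 fell from a median of 589 to 225 CPM (-1.68 ± 0.28, adjusted p = 0.000268) and S1pr1 from 751 to 327 (-1.18 ± 0.19, adjusted p = 0.000191), both in 7 of 7 mice. Klf2, the factor above these genes, fell from a median of 837 to 518 CPM in 6 of 7 mice (-1.25 ± 0.27, adjusted p = 0.00187). Lef1 (-1.88 ± 0.24) and Satb1 (-1.57 ± 0.20), a chromatin organiser of T cell development, fell in 7 of 7, as did Igfbp4 (-2.59 ± 0.43), a binding protein of insulin-like growth factors. In all, 7 of 12 tested genes of the naive and recirculation list were called lower, against 12.8% of all genes, and none was higher. The median of the 12 was -1.22. Like the rise in the effector and memory list, this fall was to be foreseen from the split and describes it. The remaining named genes that fell were Rflnb, Dusp10, Crlf3, Snhg8 and Klf3, by 0.94 to 1.19 on the log2 scale.

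Over all 861 genes 16.7% were called higher on the CD44 side. Of 17 tested immediate-early and heat-shock genes 10 were higher. Among them were Nr4a1, which responds to T cell receptor signals (median 93.2 to 533 CPM, log2 change 2.02 ± 0.26, adjusted p = 2.61e-05), Dusp1, a phosphatase of MAP kinases (1.75 ± 0.23), Jund (1.31 ± 0.16) and Nfkbia, the NF-kappaB inhibitor (1.12 ± 0.21). The heat-shock gene Dnajb1 was lower (-0.78 ± 0.28, adjusted p = 0.0410). The costimulatory receptors Cd28 (0.92 ± 0.23, 7 of 7 mice) and Icos (1.05 ± 0.31, 5 of 7 mice) rose, as did the glycolysis genes Gapdh, Ldha and Aldoa and the amino acid transporter chain Slc3a2, which were 4 of the 5 genes tested from a metabolism list, by 0.67 to 0.88. Thy1 and Cd5 rose by 1.41 ± 0.27 and 1.25 ± 0.28. Ribosomal protein genes, a list added after seeing the data, were called lower in 61 of 76, against 12.8% of all genes, with a median log2 change of -0.44.

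**Figure D3:**
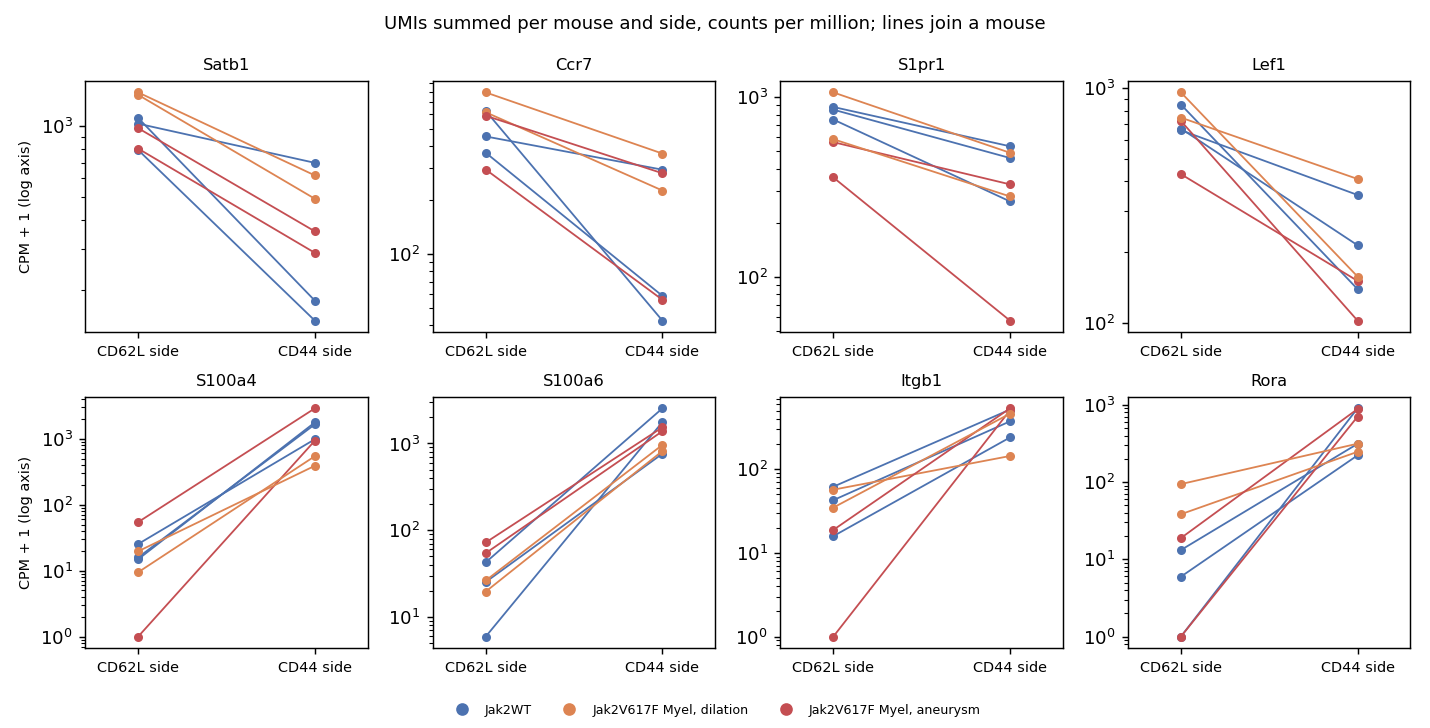
Counts per 1000000 UMIs plus 1 (log axis) of Satb1, Ccr7, S1pr1, Lef1, S100a4, S100a6, Itgb1 and Rora in CD62L-side and CD44-side CD4 T cells, with 1 line for each of the 7 mice tested, colored by group. S100a4 and S100a6 rise in every mouse and Satb1 falls in every mouse.

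Surface antibodies other than CD44 and CD62L were also compared between the sides. Of 68 tested, 13 differed (19.1%), 10 higher (14.7%) and 3 lower (4.41%). CD226, an activating adhesion receptor, had a mean of 0.885 to 2.14 counts a cell on the CD62L side and 7.00 to 9.89 on the CD44 side, without overlap (log2 change 1.93 ± 0.35, adjusted p = 0.000177). CD55, which restrains complement, fell from a median of 23.4 (14.9 to 35.1) to 9.67 counts (9.50 to 16.8), with ranges that touch (-1.64 ± 0.33, adjusted p = 0.000603). ICAM1, an adhesion ligand (1.69 ± 0.36), the integrin chain CD103 (3.17 ± 0.96) and IL1RL1, the receptor of IL-33 (3.37 ± 1.01), were higher, and TCRbeta (-1.04 ± 0.31) and CD3 (-0.91 ± 0.31) were lower. CD103 averaged 6.33 and 22.6 counts on the CD44 side of mice 7 and 9 and at most 1.00 in the other 5 mice (median of the 7 mice 0.5), against at most 0.182 on the CD62L side, so a few cells of 2 mice carried most of its counts. Of the 12 CD44-side cells of mouse 9, the mixed cell alone held 165. IL1RL1 averaged at most 1.33 counts on the CD44 side and at most 0.0667 on the CD62L side. Without the 5 mixed cells 8 antibodies differed, 4 in each direction, among them those 7. CD11b, CD11c, I-A/I-E (MHC class II), PIR-A/B, Sirpa and CD39 were called only with the mixed cells included: in mouse 3, which had 7 CD44-side cells, CD11b averaged 69.4 counts, and without the mixed cells its log2 change went from 1.38 to 0.11 (adjusted p = 0.949). Apart from CD39, which regulatory T cells also carry, these antibodies are mostly used for myeloid cells.

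Cells with a helper cytokine were few, and those with Il17a, Il13 or Ifng lay in the CD44-high set. Il17a, the type 17 cytokine, was found in 5 cells from 4 mice, with 5 UMIs in mouse 2, 18 in mouse 5, 7 in mouse 7, and 40 and 1 in mouse 9. Il13 was found in 3 cells, all of mouse 2, with 25, 45 and 3 UMIs, and each of them also held Gata3, the type 2 factor, and Il1rl1. Il5 was found in 3 cells, the most in a cell of mouse 5 with 7 UMIs beside 49 of Areg, the tissue repair factor amphiregulin. Ifng was found in 15 cells of 6 mice with at most 11 UMIs, and Tbx21, the type 1 factor, in 9. Every cell with Il17a, Il13, Ifng or Tbx21 had a log2 ratio over 2, against 67 of 184 cells in all. The same held for 42 of 43 cells with Cxcr6, a chemokine receptor of tissue lymphocytes, and for 59 of 75 cells with S100a4, whereas it held for 35 of 56 cells with Gata3, 7 of 17 with Bcl6, the factor of follicular helper cells, and 10 of 112 with Ccr7. Il21 was found in no cell and Cxcr5, the receptor of follicular helper cells, in 1.

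Foxp3, the factor that defines regulatory T cells, was found in 8 of 184 cells (4.35%, exact interval 1.90 to 8.39), and in 0 of 179 CD8 T cells and 0 of 660 B cells. Mouse 2 had 2 of these cells, mouse 7 had 1, mouse 9 had 4 and mouse 10 had 1. All 8 also held Ikzf2 (Helios), and 7 held Il2ra (the IL-2 receptor alpha chain), 7 Ctla4 and 7 Areg, while these were found in 20, 19, 34 and 8 of the other 176. Their CD103 antibody count had a median of 23 and passed 3 in 6 of 8 cells, against 2 of 176 others. The highest, 165, was in the mixed cell of mouse 9. In all, 7 of 8 had a log2 ratio of CD44 to CD62L over 2. With each cell thinned to 2000 UMIs the share of Foxp3 cells was 1.53% ± 3.05 in 4 Jak2WT and 4.18% ± 4.65 in 4 mutant mice (SD), a difference of 2.66 points (exact permutation p = 0.543); unthinned, the shares were 2.63% ± 5.26 and 7.09% ± 9.48. The thinned difference fell to 0.463 points without mouse 9 and was 4.18 without mouse 2 and 4.05 without mouse 8. There were at most 4 such cells a mouse, and what size of difference could be detected was not tested.

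Compared with CD8 T cells of the same aortas, CD4 T cells held more transcripts of Maf, Rora, Icos and Cd28 and fewer of Nkg7, Klrd1, Ccl5 and Runx3. In 8 mice with at least 10 cells of each kind, 284 of 1904 genes differed (14.9%; edgeR with the mouse as a block), 128 higher in CD4 T cells (6.72%) and 156 lower (8.19%). Without the block 164 genes differed, 74 higher and 90 lower. Genes used to choose the cells were not counted as results. The 2 kinds of cell differed in depth, with medians of 6960 and 9477 UMIs a cell. In the main fit CD4 T cells also had more CD44 and less CD62L antibody. On their CD62L side the median was 12.2 CPM for Rora, 14.9 for S100a4 and 0 for Bhlhe40 and Ccr2. The CD8 means were higher, at 65.1, 165, 47.6 and 22.2 CPM. For Tmem64, Maf, Ass1 and Hspa1b the CD62L-side median was above the CD8 mean. The share of CD44-high cells and the RNA per cell cannot be told apart in these sums.

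Among genes higher in CD4 T cells, Maf, a transcription factor of helper cells, lay between 8.03 and 80.2 CPM (median 17.7) in CD8 T cells and between 42.9 and 404 (median 218) in CD4 T cells. It was higher in 8 of 8 mice although the ranges touched (log2 difference 2.74 ± 0.28 SE, adjusted p = 1.91e-06). Tmem64, a membrane protein, was at 4.79 to 59.2 and 118 to 436 CPM without overlap (2.87 ± 0.28, adjusted p = 9.98e-07). Rora (1.99 ± 0.24), the chemokine receptor Ccr2 (2.05 ± 0.25), S100a4 (1.98 ± 0.38), Bhlhe40, a factor of cytokine-producing T cells (1.88 ± 0.24), the stress genes Gadd45b (2.10 ± 0.29) and Hspa1b (1.71 ± 0.26) were higher in 8 of 8 mice, and Ass1, which makes a precursor of arginine (1.69 ± 0.31), and Bcl2a1b, a survival gene (1.61 ± 0.34), in 7 of 8. Icos was at a median of 82.0 CPM in CD8 and 248 in CD4 T cells (1.28 ± 0.20, adjusted p = 0.000184) and Cd28 at 169 and 364 (0.99 ± 0.22, adjusted p = 0.00381). Cd40lg, the CD40 ligand, was found in 35.3% of CD4 T cells, 2.23% of CD8 T cells and 0 of 660 B cells. Cd74 and H2-Aa were also higher (2.13 ± 0.65 and 2.08 ± 0.48), and the mixed cells carried most of their UMIs: Cd74 was at 1225, 3518, 2289 and 3160 CPM in mice 3, 5, 7 and 9, and at 101, 136, 166 and 238 CPM there without them. Of the 179 CD8 T cells 2 were mixed in the same way.

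Among genes lower in CD4 T cells, Nkg7, a protein of cytotoxic granules, lay between 334 and 871 CPM in CD8 T cells and between 0 and 337 in CD4 T cells (log2 difference -2.38 ± 0.32, adjusted p = 3.25e-05), lower in 8 of 8 mice with ranges that barely touched. Ccl5, a chemokine that attracts T cells, had medians of 2133 and 562 CPM and was lower in 7 of 8 mice (-2.05 ± 0.35, adjusted p = 0.000347). Klrd1 (CD94, a receptor of killer cells) was at 64.2 to 218 and 0 to 73.6 CPM (-2.85 ± 0.36), and Ly6c2 at 244 to 689 and 0 to 196 without overlap (-2.74 ± 0.38). Ctsw (cathepsin W, -1.95 ± 0.24), Fam241a (-2.97 ± 0.25), Epsti1 (-1.92 ± 0.21), Cd7 (-1.75 ± 0.22), Dnajc15 (-1.72 ± 0.21), Dapl1 (-1.62 ± 0.32), Dusp2 (-1.51 ± 0.20) and Plac8 (-2.83 ± 0.45) were lower as well. Runx3, which silences Cd4 in CD8 T cells, was at a median of 184 in CD8 and 97.3 CPM in CD4 T cells (-1.07 ± 0.26, adjusted p = 0.00699).

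Over all genes 6.72% were called higher in CD4 T cells and 8.19% lower. By list, of 22 tested effector and memory genes 11 were higher in CD4 T cells and 1, Ly6c2, lower. Their median log2 difference was 0.61 against 0.01 over all genes. Of 21 immediate-early and heat-shock genes 13 were higher and 1, Dusp2, lower, with a median of 0.67. Of 15 naive and recirculation genes 4 were lower, among them Ccr7, Dapl1 and Txk, and 1 higher (Igfbp4), and of 5 tested type 1 helper genes 4 were lower (Ccl5, Nkg7, Runx3 and Stat4). Both tested type 17 genes, Maf and Rora, were higher. Of 16 JAK-STAT and cytokine receptor genes Ifngr2 (0.92 ± 0.17) and the STAT target Pim1 (1.18 ± 0.17) were higher and Stat4 (-0.61 ± 0.19) lower, 3 in all, which is near the 14.9% called over all genes and so is no result about that list. Of 80 ribosomal protein genes, the list added after seeing the data, 60 were called lower and 0 higher, with a median of -0.29, against 8.19% of all genes called lower.

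**Figure D4:**
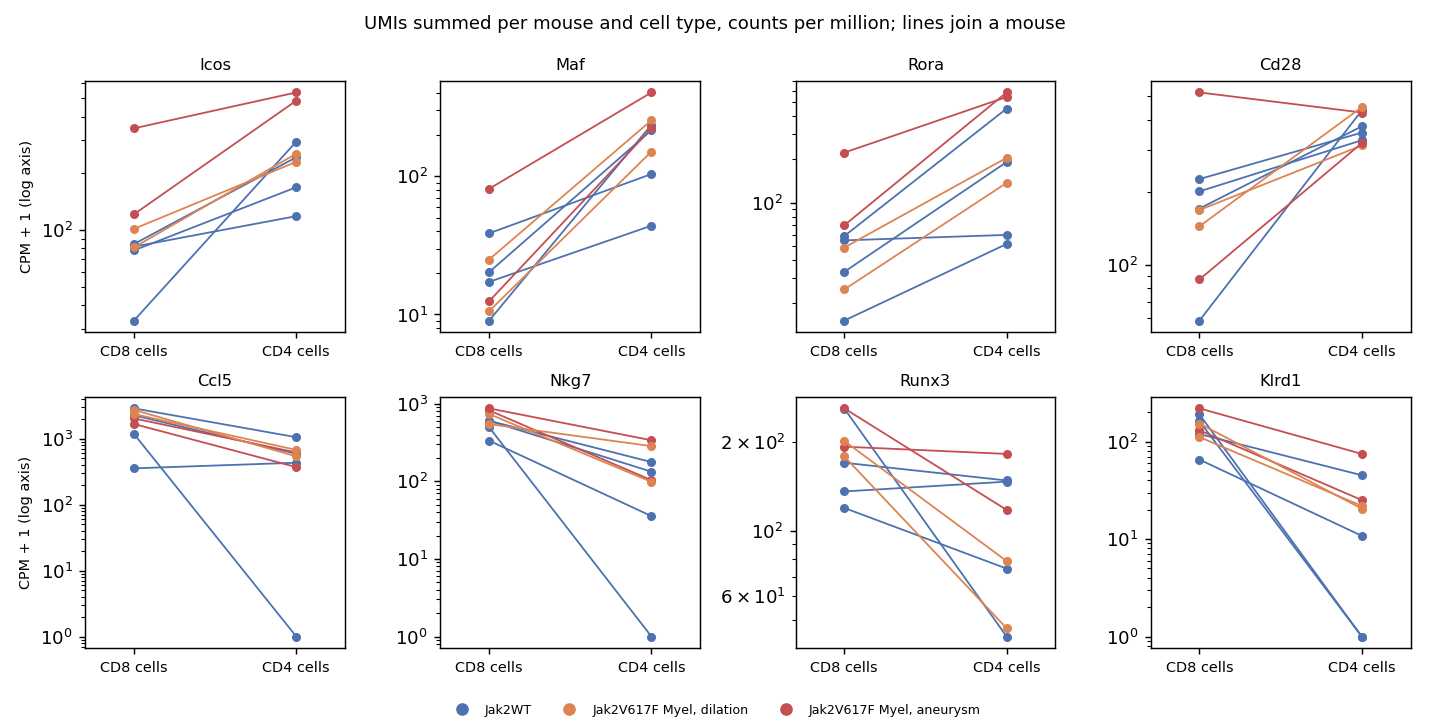
Counts per 1000000 UMIs plus 1 (log axis) of Icos, Maf, Rora, Cd28, Ccl5, Nkg7, Runx3 and Klrd1 in CD8 and CD4 T cells of the same mice, with 1 line for each of the 8 mice tested, colored by group. Icos, Maf and Rora are higher in CD4 T cells of 8 of 8 mice, and Nkg7 and Klrd1 lower.

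On the surface, 12 of 71 antibodies differed between CD4 and CD8 T cells (16.9%), 5 higher in CD4 (7.04%) and 7 lower (9.86%). CD5, which dampens T cell receptor signals, averaged 204 to 319.8 counts in CD4 and 77.9 to 172 in CD8 T cells, without overlap (log2 difference 1.22 ± 0.12, adjusted p = 7.25e-08). CD3 (1.23 ± 0.26), TCRbeta (0.85 ± 0.24), IL1RL1 (2.66 ± 0.79) and CD44 (0.89 ± 0.30) were higher as well. CD103 had a median of 0.165 counts in CD4 and 8.75 in CD8 T cells (-3.74 ± 0.70, adjusted p = 0.000577), with mouse 9 apart at 14.3 in its CD4 T cells. Of the 19 CD4 T cells of mouse 9, the mixed cell alone held 165 CD103 counts. Ly6C was at 0.970 to 2.11 counts in CD4 and 4.24 to 11.3 in CD8 T cells, without overlap (-2.07 ± 0.29). CD86 (-1.27 ± 0.30), CD26 (-0.98 ± 0.28), CD36 (-1.59 ± 0.48), CD62L (-0.72 ± 0.23) and JAML (adjusted p = 0.0276) were lower. IL1RL1 and CD36 had few counts, with medians of 0.108 and 0.0566 a cell in CD4 T cells and 0.025 and 0.261 in CD8 T cells. The rat IgG1 control antibody was at 0.0566 and 0.0528. Without TMM scaling the median of all antibodies moved from 0.08 to -0.29 and 13 differed, 2 higher and 11 lower, and CD44, TCRbeta and IL1RL1 were no longer called. Without the mixed cells CD44 was at an adjusted p of 0.0539 and the other 11 held.

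Between genotypes, no gene of the CD4 T cells passed the test. In 4 Jak2WT mice (1, 2, 3 and 5) and 4 Jak2V617F Myel mice (7, 8, 9 and 10), 0 of 2082 genes were called (0%) by edgeR and 0 by DESeq2, with 128 at an unadjusted p under 0.05, and 0 of 70 antibodies (0%) with 2 at an unadjusted p under 0.05. In 77 genes the mice of the 2 groups did not overlap (3.7%). The first of these by p in each direction all had an adjusted p of 0.777. Dnajc15, a mitochondrial co-chaperone, was at 29.4, 62.3, 46.8 and 88.1 CPM in Jak2WT mice 1, 2, 3 and 5 and at 175, 146, 153 and 138 CPM in mice 7, 8, 9 and 10 (log2 difference 1.20 ± 0.29). Fasl, the ligand of the death receptor Fas, was at 29.4, 6.93, 15.6 and 44.0 CPM and at 139, 68.2, 79.8 and 70.9 CPM (1.74 ± 0.47). Higher values in mutant mice were also found for Itgb2, the beta 2 integrin chain (75.2 ± 30.3 and 154 ± 26.0 CPM), and Rgs1 (214 ± 60.8 and 459 ± 195 CPM; SD, n = 4 each), and lower ones for Dnajb1, Rpl18, Herc1 and Stk38, with differences of -0.97 to -0.42. On the CD62L and CD44 sides the median was 0 and 122 CPM for Fasl and 55.9 and 194 for Dnajc15. It was 69.5 and 551 for Rgs1 and 80.2 and 156 for Itgb2. For Dnajb1 it was 256 and 148, for Rpl18 4601 and 3838, for Stk38 183 and 117, and for Herc1 93.0 and 91.8. CD44-high cells were 27.9% ± 21.1 of cells in these Jak2WT and 45.8% ± 22.4 in these mutant mice (SD). The mix of cells and the RNA per cell cannot be told apart in sums of a mouse. Hbb-bs, a haemoglobin chain, was lower (-5.97 ± 1.64) through the haemoglobin-rich cell of mouse 3, where it reached 15597 CPM against 88.1 to 97.0 in the other 3 Jak2WT mice. In the pathway that the mutation acts on, Jak2 was at 67.3 ± 36.0 and 81.8 ± 21.8 CPM, the feedback inhibitor Socs3 at 68.9 ± 30.2 and 76.0 ± 19.2, and Pim1 at 514 ± 193 and 499 ± 268 (SD, n = 4 each; log2 differences 0.15 ± 0.36, -0.15 ± 0.35 and -0.17 ± 0.38 SE). For Socs3 the fitted difference and the difference of the mean CPM have opposite signs, and its adjusted p was 0.968, so no direction is read from it. These counts do not tell the V617F allele from the normal one. None of the 19 JAK-STAT and cytokine receptor genes, 24 effector and memory genes or 16 naive and recirculation genes was called, with medians of -0.06, 0.30 and -0.28 against 0.01 over all genes. Xist was at 559, 907 and 644 CPM in mice 1, 2 and 7 and at most 4.17 CPM in the other 5 mice, so the sexes were unequal between the groups, and their part was not tested. In simulated data of this comparison 98.5% of genes changed 4-fold and 42.5% of those changed 2-fold were recovered. The simulation changed 200 of 2087 genes and gave all genes 1 common spread and all mice the same mix of cells. Recovery in the real data may therefore be lower, and the 0 calls do not exclude 4-fold changes.

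Between the aneurysm and dilation mice no gene passed in the fit over all 8 mice, but several of the genes named here passed in other fits. Only mice 7 and 9 against 8 and 10 had 10 or more CD4 T cells, and 0 of 2767 genes were called (0%) by edgeR in a fit that took its spread from all 8 mice, with 255 at an unadjusted p under 0.05. DESeq2 called 9, the 4 mutant mice alone gave 47, and the fit without Jak2WT mouse 2 gave 9. Of the 10 genes named here, 9 (all but Dgkd) were called in the mutant mice alone, and Bhlhe40, Nfkbia, Rel, S100a4 and Klf2 by DESeq2. In the fit over all 8 mice none of the 10 was called with or without the mixed cells, and the other fits were not repeated without them. Mice did not overlap in 1146 genes (41.4%), a share that cannot be set against that between genotypes, because groups of 2 mice overlap less often by chance than groups of 4. Bhlhe40 was at 398 and 301 CPM in mice 7 and 9 and at 48.7 and 66.7 in mice 8 and 10 (log2 difference 2.50 ± 0.43, adjusted p = 0.122). Jak2WT mice 1, 2, 3 and 5 held 132, 201, 66.3 and 132 CPM, below both aneurysm mice and, but for mouse 3, above both dilation mice. Nfkbia was at 675 and 736 against 166 and 196 CPM (1.90 ± 0.36), Rel, an NF-kappaB subunit, at 373 and 479 against 97.5 and 133 (1.80 ± 0.34), and S100a4 at 723 and 1914 against 195 and 279 (2.39 ± 0.47), each with an adjusted p of 0.122. Without the mixed cells S100a4 was at 641 and 1294 CPM in mice 7 and 9 and at 82.7 in Jak2WT mouse 3, where it had been at 363. For Nfkbia the 4 Jak2WT mice lay between 382 and 997 CPM, above the dilation mice and overlapping the aneurysm mice. Picalm, a protein of endocytosis, followed at 1.82 ± 0.37 (adjusted p = 0.127).

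The genes with lower values in aneurysm included Klf2, at 313 and 337 CPM in mice 7 and 9 and 682 and 771 in mice 8 and 10 (-1.21 ± 0.29, adjusted p = 0.230). Pde7a, Crlf3, Dgkd and Itm2a followed with log2 differences of -2.84 to -1.31 and adjusted p of 0.230 to 0.234. Itm2a, a membrane protein found in thymocytes, was at 279 CPM in mouse 10 and at most 97.6 CPM in the other 7 mice. The effector and memory list had a median of 0.89 and the naive and recirculation list of -0.85, against -0.02 over all genes, with none of 25 and 16 genes called. These 2 lists separate the CD44 and CD62L sides, and the share of CD44-high cells was 70.8% and 57.9% in mice 7 and 9 against 23.1% and 31.3% in mice 8 and 10. More such cells and more RNA of these genes in each cell cannot be told apart in sums of a mouse. Mixed cells were present in mice 7 and 9 and in neither dilation mouse. The fit over all 8 mice called 0 genes both with and without them, so it cannot show what they contributed. The fits that did call genes were not repeated without them. In simulated data of this comparison 69.5% of genes changed 4-fold and 2.5% of those changed 2-fold were recovered. These data too had 1 common spread for all genes, so recovery in the real data may be lower.

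**Figure D5:**
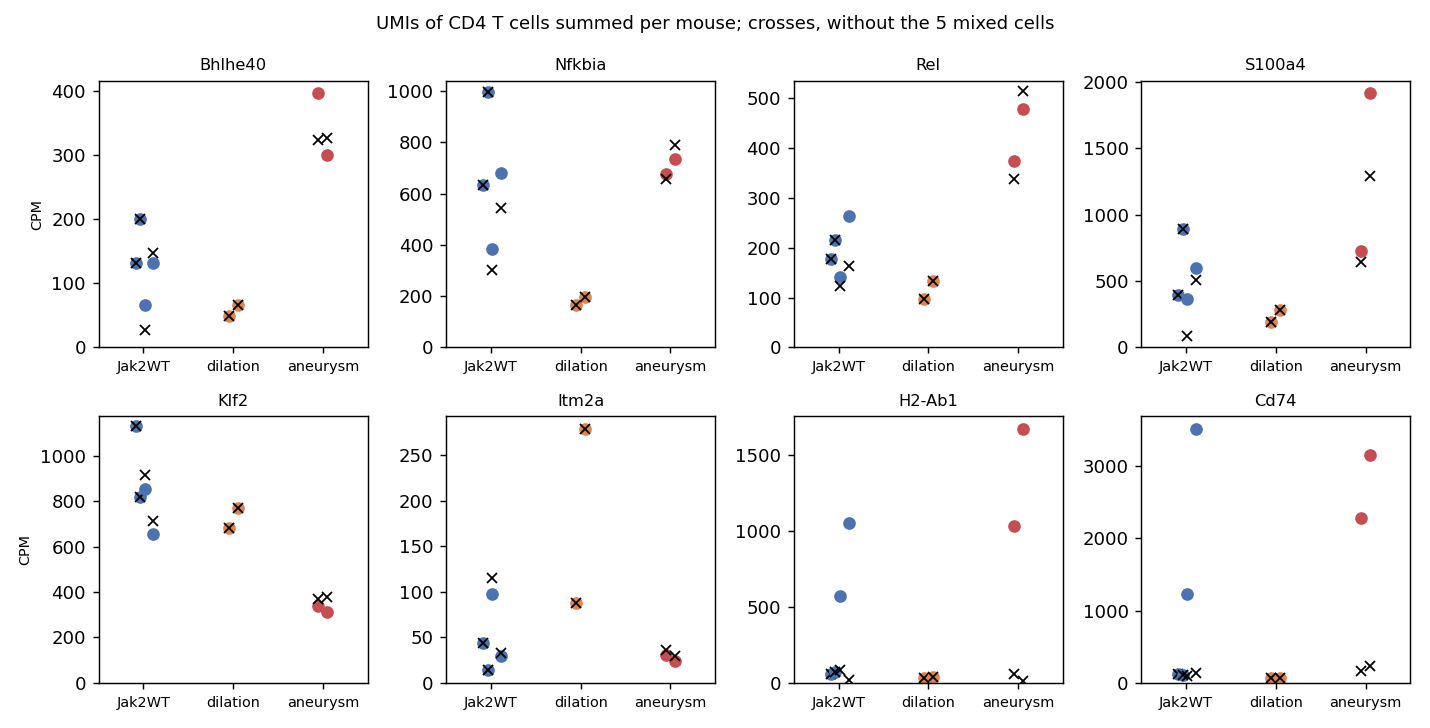
CPM of CD4 T cells in each of the 8 mice tested, by group, for Bhlhe40, Nfkbia, Rel, S100a4, Klf2, Itm2a and the MHC class II genes H2-Ab1 and Cd74; points are mice and crosses the values without the 5 mixed cells. Bhlhe40, Nfkbia, Rel and S100a4 lie higher in the 2 aneurysm mice than in the 2 dilation mice.

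The beta chain constant genes gave a view of receptor use. Trbc1 and Trbc2 lie 6848 bases apart on the plus strand of chromosome 6 and a productive rearrangement uses either. UMIs of both were found in 88 of 184 CD4 T cells, of Trbc2 alone in 91, of Trbc1 alone in 4 and of neither in 1. Because the genes are near-identical copies, counting may split their reads, and the shares are uncertain for that reason. Cells with Trbc1 were 50.0% of CD4 T cells and 60.9% of CD8 T cells. By mouse they ranged from 36.8% to 68.4% in 7 of the 8 mice with at least 10 CD4 T cells. Mouse 1 stood apart with 1 of 10 cells (10.0%, exact interval 0.253 to 44.5), while 10 of its 20 CD8 T cells held Trbc1.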

How the data were processed

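Cells of 10 mouse aortas were tagged with hashtags, pooled and run as a single library with RNA, antibody and hashtag reads. The authors counted UMIs with Cell Ranger (6.0.2 per the file headers) on mm10 and deposited a table of whole-number counts, whose 8471 barcodes were read for 32285 genes, 10 hashtags and 75 antibodies, of which 73 had any. Their notes also name Seurat 3.0.0. Cells came from 1 pool, so no library batch exists. Hashtags gave the mouse of each cell and the labels its group. No doublet caller was run: cells with 2 strong hashtags fell out by the hashtag ratio, which cannot remove doublets from the same mouse.

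The members, the gene lists and the comparisons were chosen with earlier results of these data known. The mouse was the replicate. Counts were summed per mouse, with at least 10 cells (mice 4 and 6 dropped out) or, for the CD44 and CD62L sides, 5 cells on each side. Sums were tested with the quasi-likelihood test of edgeR 4.0.16 in R 4.3.3 (TMM, filterByExpr, Benjamini-Hochberg over all genes or antibodies, threshold 0.05). The mouse was a block where both cell sets came from the same animals, a pairing given by the hashtags. Shares and ratios were compared by exact two-sided permutation over mice (scipy 1.17.1), with a pseudocount of 1 in the ratio. CPM is a count per 1000000 UMIs of the summed cells, reads come from the 3' end, and SE is that of the log2 change in edgeR.

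Genes of the rule were not counted or named as results, nor were Cd4, Cd8a and Cd8b1 against CD8 T cells. Sex-linked genes stayed in the counts but were not named as results. Named genes were, between groups of mice, up to 10 called in each direction or, with fewer than 5 called, the first 5 by p whose mice did not overlap; between cell sets, up to 12 in each direction by log2 change with a mean of at least 50 CPM in either set; and list members chosen by level or role. Some genes that met these rules are not reported here. Alternatives were DESeq2 1.42.0, limma 3.58.1, other scalings, filters, cell limits and blocks, and each mouse left out. Counts without mixed cells, the cut of the ratio at 2 and the antibody comparison of the 2 sides were added after seeing the data. The planned comparison of Foxp3 cells with the rest could not be fitted, since no mouse had 5 such cells. The tests were run first on simulated data.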

Additional observations from a re-analysis of the deposited data

Results flagged for a closer look

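In 8 of 72 groups of 4 or 5 mice checked, a single mouse stood farther from the others than Dixon's limit allows, and chance alone flags about 1 in 20 groups. No cause was tested. Among Jak2WT mice, the thinned share of Foxp3 cells was 6.11% in mouse 2 and 0 in the other 3, and thymocyte-like cells were 12.7% of the cells of mouse 3 against at most 2.74% in the others. Trac was at 720.2 CPM in mouse 1 against at most 492 in the others, and its CD3 antibody averaged 17.7 counts a cell against at most 8.42. Picalm was highest in mouse 5, at 181 CPM against at most 125. Hbb-bs was at 15597 CPM in mouse 3 against at most 97.0, and at 96.5 CPM there without its haemoglobin-rich cell. The CD103 antibody averaged 0.526 counts in mouse 2 against at most 0.1 in the other Jak2WT mice. Among mutant mice, Fasl was at 139 CPM in mouse 7 against at most 79.8 in the others.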

How the results depend on the processing

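The smaller share of CD4 T cells in mutant mice kept its direction in every alternative run but not its side of the threshold. It was -1.55 points with a stricter antibody gate (exact permutation p = 0.0556), -10.3 points as a share of cells with Cd3 UMIs (p = 0.0873), and -2.12 to -1.37 points with each mouse left out. Between genotypes, 36 genes were called without the filter on low counts and 0 in the other alternatives, and 0 to 1 antibodies with each mouse left out (1 without mouse 10). Between aneurysm and dilation, 3 genes were called with the stricter gate, 9 by DESeq2, 111 without the filter, 47 in mutant mice alone, and 0 to 9 with each mouse left out (9 without Jak2WT mouse 2). Against CD8 T cells, 182 genes differed with the stricter gate, 443 without the filter and 164 with no replicate block for the mouse, where 8 antibodies differed; 7 antibodies differed with the stricter gate and 7 to 13 with each mouse left out (7 without mouse 3). Between the CD44 and CD62L sides, 455 genes differed without the filter, 347 with the ratio cut at 2 in 5 mice, and 257 with no replicate block. Of antibodies, 8 differed without the mixed cells, where CD11c turned to -0.18 on the log2 scale, 14 with no replicate block, and 8 to 13 with each mouse left out (8 without mouse 7). Named genes kept direction and call in 407 of 418 values against CD8 T cells and 343 of 353 between the sides, and named antibodies in 136 of 168 and 111 of 143. Between groups of mice no named gene was called in the main fit, so there the same result means staying uncalled. That held in 174 of 177 values between genotypes and 148 of 177 between aneurysm and dilation. In the other 3 and 29 values the gene gained the call. Sides of at least 10 cells and every alternative of the Foxp3 cell comparison could not be fitted. In simulated data 94% and 92% of 2-fold changes were recovered against CD8 T cells and between the sides, but 42.5% between genotypes and 2.5% between aneurysm and dilation, so changes of that size between groups of mice could be missed. All genes had 1 common spread in these simulations, so the shares may be too high for the real data.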
